A study of Mus musculus with 18 samples.

Results

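The Hippo kinases and adaptors, with 1 gene that shares a name with one of them, make up the 9 genes described here, taken from the deposited table as the rows whose gene symbol was Stk3, Stk4, Mst1, Lats1, Lats2, Sav1, Mob1a, Mob1b or Nf2. Each symbol was on 1 row of the 34745 genes in the table, and all 9 genes were among the 14241 that passed the filter on low counts. Of the 9, 8 encode Hippo kinases or adaptors, and the gene with the symbol Mst1 encodes a secreted ligand outside the cascade. RNA was sequenced from bone marrow-derived macrophages (BMDMs), which were grown from mouse marrow with the growth factor M-CSF and then kept in M-CSF alone (day 0) or with RANKL, the cytokine that drives macrophages to become osteoclasts, for 1 or 3 days. There were 18 libraries, 9 labelled WT (wild-type littermates) and 9 labelled KO (Zmat1 knockout, a deletion present in the whole animal). They formed 6 groups of 3, with 3 libraries per label on each of days 0, 1 and 3. The mice were on the C57BL/6 background and every group received M-CSF. Zmat1 itself showed no fall with the KO label on any day (day 3, 5.04 ± 0.541 against 3.26 ± 1.30 CPM, SD, n = 3 each, adjusted p = 0.615, edgeR, where CPM is the count of a gene as a proportion of the scaled library), so groups are named by their labels throughout.

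The Hippo pathway is a kinase cascade that holds growth-promoting transcription in check. MST1 and MST2, bound to the scaffold SAV1, phosphorylate the kinases LATS1 and LATS2 and their co-activators MOB1A and MOB1B, and NF2 (merlin) brings LATS to the membrane where this happens. Active LATS phosphorylates YAP and TAZ, which then leave the nucleus and no longer bind the TEAD factors. In macrophages MST1 is also known for roles in adhesion, survival and handling of microbes.

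After 3 days of RANKL, Nf2 rose 1.37-fold in the libraries labelled WT while Stk4 and Lats2 fell 1.93-fold and 1.59-fold, and in those labelled KO Lats1 rose 1.28-fold. Thus 3 of 9 genes passed the test in the libraries labelled WT against 50.2% of all genes tested, and 1 of 9 passed in those labelled KO against 42.5%. The median absolute log2 fold change was 0.18 over the 9 genes and 0.69 over all genes in the libraries labelled WT, and 0.28 and 0.57 in those labelled KO. Without Mst1 the counts were 3 of 8 and 1 of 8. After 1 day of RANKL, and between the labels on each day, none of the 9 passed. These calls depended on how libraries were scaled. The fit used here scales libraries with TMM (a trimmed mean of log ratios between libraries), and scaling by total counts raised the median log2 fold change of all genes by 0.36 in the libraries labelled WT and 0.29 in those labelled KO. The calls, 1 higher and 2 lower with TMM in the libraries labelled WT, then became 5 higher (Nf2, Lats1, Sav1, Mob1b and Mst1) and 0 lower, and the 1 higher in those labelled KO became 4 higher (Lats1, Nf2, Sav1 and Stk3) and 0 lower. With total counts 51.8% and 43.8% of all genes were called, so these counts, 4 of 8 in each label without Mst1, were near the share over all genes, and the lower share of the 9 genes with TMM depended on the scaling. The median absolute log2 fold changes with total counts were 0.48 over the 9 and 0.74 over all genes in the libraries labelled WT, and 0.46 and 0.62 in those labelled KO. Changes are given here relative to the other genes, as TMM scaling gives them.

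The libraries held 13789775 to 17559958 counts each. Macrophage markers (7 genes, summed CPM) ran from 28800 to 59300 on days 0 and 1 and from 6140 to 17100 on day 3, and osteoclast markers (10 genes) from 224 to 1220 and from 8290 to 23400. Stromal and osteoblast markers (10 genes, all counted in every group) also rose with day, and differed between libraries of a group. Their sum was 89.4 to 4550 CPM in WT day 0, 1050 to 3470 in KO day 0, 10500 to 13700 in WT day 3 and 18300 to 27200 in KO day 3. Neutrophil markers (8 genes) summed to 662 to 3010 CPM in WT day 0, 3650 to 11700 in KO day 0, 35.8 to 66.9 in WT day 3 and 97.6 to 1150 in KO day 3. In bulk RNA, fewer cells of a type and less RNA per cell cannot be told apart. The part of these other cells in the changes below was not tested. Within WT day 0, where the stromal sums of replicates 1, 2 and 3 were 89.4, 536 and 4550 CPM, Nf2 was in the same order at 89.2, 95.2 and 79.7 CPM, Lats1 at 51.3, 57.3 and 54.6 CPM, Stk4 at 201, 210 and 186 CPM and Lats2 at 67.9, 78.5 and 54.3 CPM. Other pathway genes described below rose with these sums, with Yap1 at 0.824, 3.48 and 23.9 CPM and Ptpn14 at 0.824, 3.95 and 24.5 CPM. These 3 libraries did not reach the stromal sums of day 3. In WT day 1 Stk4 was lowest where the sum was lowest, at 69.1, 138 and 158 CPM with sums of 274, 2830 and 2480 CPM. The same held in KO day 0, at 188, 69.8 and 179 CPM with sums of 3300, 1050 and 3470 CPM. It did not hold within day 3 or in KO day 1, at 173, 168 and 137 CPM with sums of 3410, 2310 and 7930 CPM. A link between Stk4 and these sums was not tested. The titles of 5 libraries carry a double hyphen. They are WT day 0 replicate 1, KO day 0 replicate 2, KO day 1 replicates 1 and 2, and 1 WT day 1 library numbered 1. None is of day 3, so day 3 changes compare single-hyphen libraries with a mix of both styles. The low-Stk4 libraries of KO day 0 and WT day 1 are among these 5. The erythroid gene Hbb-bs was at 0 to 0.33 CPM in these 5 and at 8.16 to 12.5 CPM in all others. What the style stands for is not given. With this style in the model 1 of the 9 genes followed it, Stk3 (log2 difference 0.28, adjusted p = 0.0443, edgeR), and so did 3310 of the 14241 genes tested. Following the style was thus common over all genes and not particular to Stk3.

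**Figure D1:**
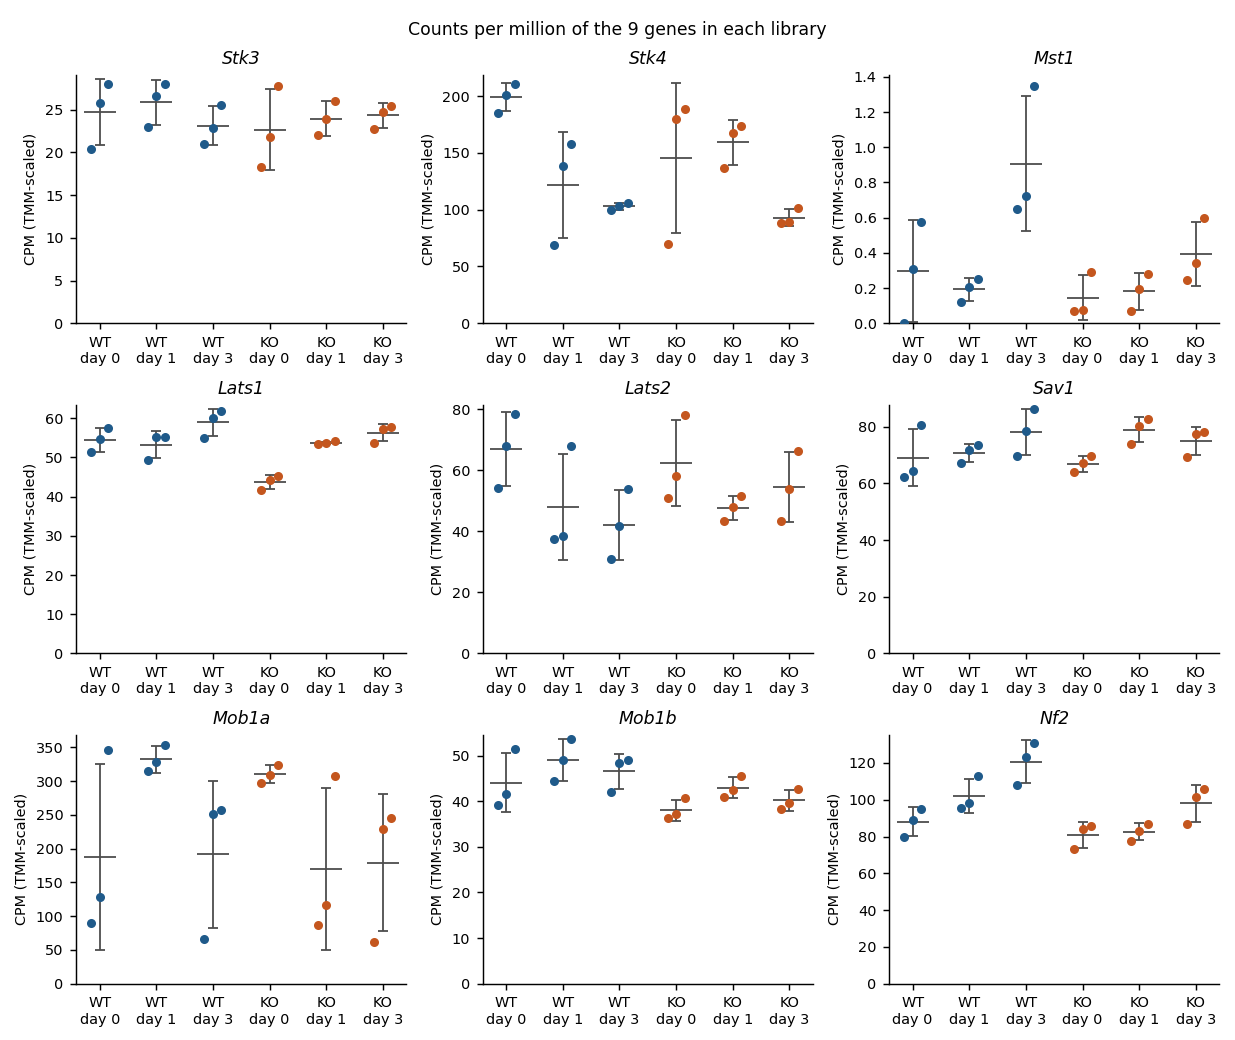
CPM (vertical axis, from the TMM-adjusted library size) of the 9 genes in each library, by label and day (horizontal axis). Points are libraries, drawn from low to high within a group, and bars show the mean and SD of 3. Lats1 points lie close together in every group, whereas Mob1a runs from 62 to 353 CPM with low and high libraries side by side in 4 of the 6 groups.

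Levels between genes were compared on the deposited FPKM, which divides by 1 fixed length per gene. That length ran from 2524 bases for Sav1 to 17828 for Mob1b, with 10811 for Mob1a, 10443 for Lats2 and 8835 for Lats1. The order and the paralog shares below depend on these lengths. By mean CPM, which uses no length, Sav1 (73.1) lay below Mob1a (228), Stk4 (137) and Nf2 (95.4). By the median over 18 libraries the order was Sav1 at 28.9 FPKM, Mob1a at 25.4, Stk4 at 22.5, Nf2 at 9.06, Lats1 at 5.95, Lats2 at 4.82, Stk3 at 4.61, Mob1b at 2.47 and Mst1 at 0.0825. The first 3 were not separated, since Sav1 ran from 21.8 to 39.2, Mob1a from 6.22 to 32.9 and Stk4 from 8.87 to 30.9 FPKM. Nf2 (7.44 to 16.2) overlapped Stk4 and Lats1 (4.06 to 8.18), and Lats1, Lats2 (3.55 to 7.33) and Stk3 (3.43 to 5.78) overlapped each other. Mob1b (1.96 to 3.26) lay below all of these and above Mst1 (0 to 0.474). Every gene except Mst1 was thus present in every library at more than 1 FPKM.

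The name Mst1 needs care. In the mouse, Stk4 (ENSMUSG00000018209, chromosome 2, 164070322 to 164155524, plus strand, GRCm38) encodes the Hippo kinase MST1 and Stk3 (ENSMUSG00000022329, chromosome 15, 34875496 to 35155806, minus strand) encodes MST2. The gene whose symbol is Mst1 (ENSMUSG00000032591, chromosome 9, 108080436 to 108085003, plus strand) encodes macrophage-stimulating protein, a secreted ligand of the receptor tyrosine kinase MST1R (RON), and is no part of the kinase cascade. The primers listed for quantitative PCR beside these libraries bear on which of these genes an assay named Mst1 reads. Read in order, that list does not pair its primers with its gene names, and the Lats1 antisense primer is listed 2 times. Primers were therefore assigned here by matching their sequences to transcripts. The pairs matching transcripts of the 9 genes (GENCODE M21) are written 5′ to 3′, with no base capitalised:
Mst1 sense primer: ctcaccactgaatgacttccag
Mst1 antisense primer: aaggcccgacagtccagaa
Lats1 sense primer: aaagccagaagggtacagaca
Lats1 antisense primer: cctcagggattctcggatctc
The first pair matched transcripts of Mst1 and 0 of the 5 transcripts of Stk4. Its sense primer lies in the coding part of exon 2 of 18 (chromosome 9, 108081152 to 108081173), its antisense primer crosses from exon 2 into exon 3 (108081280 to 108081390, with the intron inside), and the product is 147 bases long. The Lats1 pair lies in the coding part of exon 1 of 8 in transcript ENSMUST00000040043 (chromosome 10, 7691481 to 7691501 and 7691563 to 7691583), with a product of 103 bases.

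Stk4 was the kinase gene with the larger change. It measured 185 to 210 CPM in the 3 WT day 0 libraries and 100 to 106 CPM in the 3 WT day 3 libraries, so the groups did not overlap, which gave a log2 fold change of -0.95 (SE 0.311, adjusted p = 0.0202 with edgeR). This call was lost in 6 of 18 alternatives, among them total counts (-0.59, adjusted p = 0.176) and the fits without WT day 0 replicate 1 or 2 or WT day 3 replicate 2 or 3 (adjusted p of 0.0521 to 0.0612). With the KO label, Stk4 was at 188, 69.8 and 179 CPM on day 0 and at 101, 89.1 and 88.7 CPM on day 3. One day 0 library thus lay below all 3 of day 3, and the log2 fold change was -0.65 (SE 0.309, adjusted p = 0.103). Without that library, KO day 0 replicate 2, which has a double-hyphen title, the log2 fold change was -0.96 (adjusted p = 0.00846). On day 1 Stk4 was at 137 to 173 CPM in the libraries labelled KO and at 69.1, 138 and 158 CPM in those labelled WT, where the lowest was the double-hyphen library numbered 1. The day 1 change in the libraries labelled WT was -0.71 (SE 0.309, adjusted p = 0.211), with all 3 libraries below those of day 0. None of the 5809 stretches of 50 bases in Stk4 transcripts occurred in transcripts of another gene, and the Stk4 span overlaps the end of Tomm34 on the opposite strand by 848 bases. Since the counting was not stated to use strand, such reads could not be assigned with certainty.

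Stk3, the closest relative of Stk4, lay between 18.3 and 28 CPM in all 18 libraries. From day 0 to day 3 it went from 24.7 ± 3.86 to 23.1 ± 2.29 CPM in the libraries labelled WT (log2 fold change -0.09, 95% interval -0.43 to 0.24) and from 22.6 ± 4.77 to 24.3 ± 1.43 CPM in those labelled KO (0.10, interval -0.23 to 0.44), and neither passed. The sign of the first turned under total counts (0.27). The Stk3 share of the FPKM of the pair was 13.2% ± 2.25 in WT day 0 and 21.6% ± 1.18 in WT day 3, with no overlap between the groups (10.6% to 14.5% and 20.5% to 22.8%). Under the KO label it was 18.8% ± 12.1 on day 0 and 24.3% ± 1.48 on day 3, and these overlapped, with the low-Stk4 day 0 library at 32.8%. In every library Stk4 was the more abundant of the pair.

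Mst1, the ligand gene, was close to absent. It had 0 to 24 counts per library, and the highest group was WT day 3 with 14, 11 and 24 counts (0.905 ± 0.384 CPM) against 7, 4 and 0 counts in WT day 0. The fitted log2 fold changes on day 3 were 1.62 (SE 0.783, adjusted p = 0.0968) in the libraries labelled WT and 1.37 (SE 0.873, adjusted p = 0.216) in those labelled KO, and at these counts they depend on the prior count of the fit. Without WT day 0 replicate 1 the first was 2.54 and passed. Mst1 shares 2911 bases of its span with Rnf123 on the opposite strand, a gene with 506 to 870 counts per library, and 4.29% of its 50-base stretches occur in Rnf123 transcripts, so part of these few counts may belong to that gene. Its receptor gene Mst1r behaved otherwise. Mst1r was at 0 to 0.33 CPM in every library of days 0 and 1, and at 119, 112 and 149 CPM in WT day 3 and 85.2, 122 and 41.4 CPM in KO day 3 (adjusted p = 1.14e-06 and 4.78e-06, edgeR).

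Sav1, the scaffold that joins the MST kinases to LATS, stayed between 62.1 and 86.2 CPM in all 18 libraries. Its day 3 log2 fold change was 0.18 (SE 0.110, adjusted p = 0.183) in the libraries labelled WT and 0.16 (SE 0.110, adjusted p = 0.241) in those labelled KO, and on day 1 of the libraries labelled KO, where all 3 lay above day 0, it was 0.24 (adjusted p = 0.481). Sav1 (ENSMUSG00000021067, chromosome 12, 69965012 to 69987002, minus strand) shares 24.7% of its 50-base stretches with Atl1, transcribed from the other strand at 9 to 72 counts per library.

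The LATS kinases differed in how steady they were. Lats1 (ENSMUSG00000040021, chromosome 10, 7681209 to 7716458, plus strand) was at 45.2, 41.8 and 44.3 CPM in KO day 0, at 53.4, 54.1 and 53.6 CPM in KO day 1 and at 57.2, 53.8 and 57.7 CPM in KO day 3. The KO day 0 libraries therefore lay below all others, and the rise to day 3 was 0.36 on the log2 scale (SE 0.0834, adjusted p = 0.00361, edgeR), which passed in 18 of 18 alternatives. The day 1 log2 fold change was 0.29 and did not pass (adjusted p = 0.267), although DESeq2 called it (adjusted p = 0.0249), 1 of 18 alternatives to do so. In the libraries labelled WT, Lats1 was at 51.3 to 57.3 CPM on day 0 and at 55 to 61.7 CPM on day 3, overlapping groups, with a log2 fold change of 0.11 (95% interval -0.06 to 0.29, adjusted p = 0.26). The difference between these responses was 0.25 (SE 0.118, adjusted p = 0.91), so the rise was not shown to belong to one label. The within-group SD of log2 CPM of Lats1 was 0.0704, smaller than that of all but 0.354% of the 4518 genes within 2-fold of its mean level.

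Lats2 (ENSMUSG00000021959, chromosome 14, 57642077 to 57758388, minus strand) had an SD of 0.336, above that of 77.4% of genes near its level. It was at 67.9, 78.5 and 54.3 CPM in WT day 0 and at 53.8, 41.8 and 30.8 CPM in WT day 3. These groups nearly touched, and the log2 fold change of -0.67 (SE 0.260, adjusted p = 0.0446) was called in only 6 of 18 alternatives (adjusted p of 0.0243 to 0.29 over all of them). It was lost without WT day 0 replicate 1 or 2 or WT day 3 replicate 2 or 3 (adjusted p of 0.0963 to 0.176), and total counts gave -0.30 (adjusted p = 0.29). With the KO label, Lats2 was at 51 to 78 CPM on day 0 and 43.3 to 66.3 CPM on day 3 (-0.20, 95% interval -0.75 to 0.35, adjusted p = 0.558), and the sign turned under total counts (0.09). The day 1 change in the libraries labelled WT was -0.48 (SE 0.259, adjusted p = 0.307). It was -0.81 (adjusted p = 0.0472) without the double-hyphen WT day 1 library numbered 1, which alone of that group was at 68 CPM while the others were at 37.5 and 38.3 CPM. The fit without that library called 12.4% of all genes, against 2.35% in the main fit. The difference in day 3 response between the labels was 0.47 (SE 0.366, adjusted p = 0.927). Lats2 made up 50.7% ± 4.38 of the FPKM of the LATS pair in WT day 0 and 37.2% ± 5.14 in WT day 3, and 54.3% ± 5.01 and 44.7% ± 6.03 in KO day 0 and day 3, where the ranges overlapped. The table gives Lats2 a span of 116.3 kb that runs into Xpo4 on the same strand (127 to 594 counts per library), so Lats2 counts are uncertain. In M21, 41.2% of its 50-base stretches also occur in an overlapping gene model, Gm49361, which is not among the genes of the deposited table. Over the 18 libraries Lats2 and Xpo4 had a Pearson r of -0.62, as a description.

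The promoters of the LATS genes are printed because Lats2 is a known target of YAP and TEAD. They are RefSeq windows (GRCm38.p6) of 250 bases before to 50 bases after the start, 5′ to 3′ on the gene's strand, with the TEAD core GGAATG (either strand) in capitals:
Lats1, chr10:7680959-7681258, plus strand: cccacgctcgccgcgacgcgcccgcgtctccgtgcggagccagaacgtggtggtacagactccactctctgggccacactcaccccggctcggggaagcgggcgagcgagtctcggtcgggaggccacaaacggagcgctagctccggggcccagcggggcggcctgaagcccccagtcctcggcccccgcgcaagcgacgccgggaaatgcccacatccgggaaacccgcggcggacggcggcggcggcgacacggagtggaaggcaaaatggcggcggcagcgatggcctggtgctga
Lats2, chr14:57746074-57746373, minus strand: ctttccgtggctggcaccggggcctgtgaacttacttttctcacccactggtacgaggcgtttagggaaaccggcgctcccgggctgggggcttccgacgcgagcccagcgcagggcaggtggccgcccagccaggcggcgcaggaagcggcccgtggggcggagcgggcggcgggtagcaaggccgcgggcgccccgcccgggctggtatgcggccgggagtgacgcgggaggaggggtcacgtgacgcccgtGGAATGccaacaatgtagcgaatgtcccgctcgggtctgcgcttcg
The Lats2 window held 1 such match, which began 4 bases after the start, and the Lats1 window held none. A second Lats2 window (chr14:57734369-57734668, minus strand), not printed, also held none. Windows were found for 8 of the 9 genes (10 windows), and Stk3 was not among them. The core was found for 3 of the 8, Lats2, Sav1 and Mob1a, in 1 window each. That was 3 of the 10 windows, against 14.7% of all 32851 windows. The AP-1 motif TGANTCA was found for 0 of the 8 and in 7.81% of all windows. A link between these motifs and the changes was not tested, and neither LATS response was shown to differ between the labels.

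**Figure D2:**
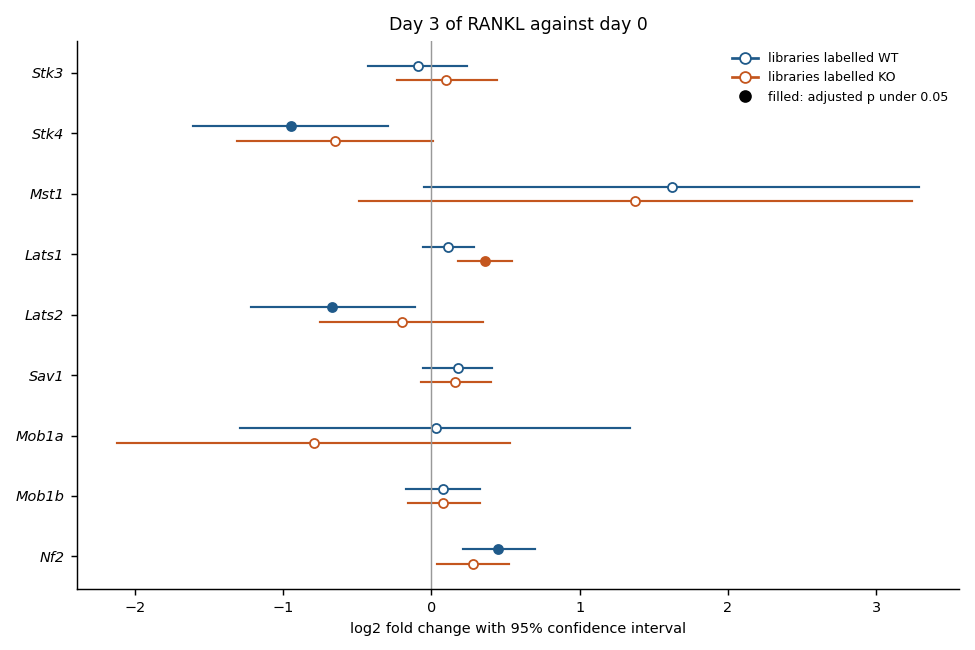
Log2 fold change from day 0 to day 3 of RANKL (horizontal axis) for the 9 genes in the libraries labelled WT (blue) and KO (orange). Circles are edgeR estimates with 95% confidence intervals, filled where the adjusted p was under 0.05. Nf2, Stk4 and Lats2 are filled for WT and Lats1 for KO, and the intervals of Mob1a and Mst1 are the widest.

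The MOB1 co-activators gave the widest and one of the narrowest spreads. Mob1a (ENSMUSG00000043131, chromosome 6, 83326016 to 83343776, plus strand) was at 129, 89.4 and 346 CPM in WT day 0, at 315, 328 and 353 CPM in WT day 1 and at 251, 66 and 257 CPM in WT day 3. In the libraries labelled KO it was at 309, 325 and 297 CPM on day 0, at 86.6, 307 and 116 CPM on day 1 and at 245, 229 and 62 CPM on day 3. The 6 lowest libraries (62 to 129 CPM) were spread over 4 groups and both labels, and the other 12 lay at 229 to 353 CPM. The highest library exceeded the lowest by more than 2-fold within 4 of the 6 groups, up to 3.96-fold, and the within-group SD of 0.861 was above that of 95.8% of the 1466 genes near its level. Its log2 fold changes on day 3 were therefore imprecise, at 0.03 (95% interval -1.29 to 1.34) in the libraries labelled WT and -0.79 (interval -2.12 to 0.53) in those labelled KO, where all 3 day 3 libraries lay below day 0. None of the 4891 stretches of 50 bases in Mob1a transcripts occurred in another gene, and the M21 annotation placed no other gene over it. The cause of these steps was not tested.

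Mob1b (ENSMUSG00000006262, chromosome 5, 88720855 to 88764220, plus strand) lay between 36.3 and 53.6 CPM throughout. It changed by 0.08 in both labels from day 0 to day 3 (SE 0.115 and 0.116, adjusted p = 0.58 and 0.586). Mob1b made up 6.91% ± 0.131 of the FPKM of the MOB1 pair in KO day 0, where Mob1a was high in all 3 libraries, and 6.42% to 29.5% over all 18. Mob1a was the more abundant of the pair in every library.

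**Figure D3:**
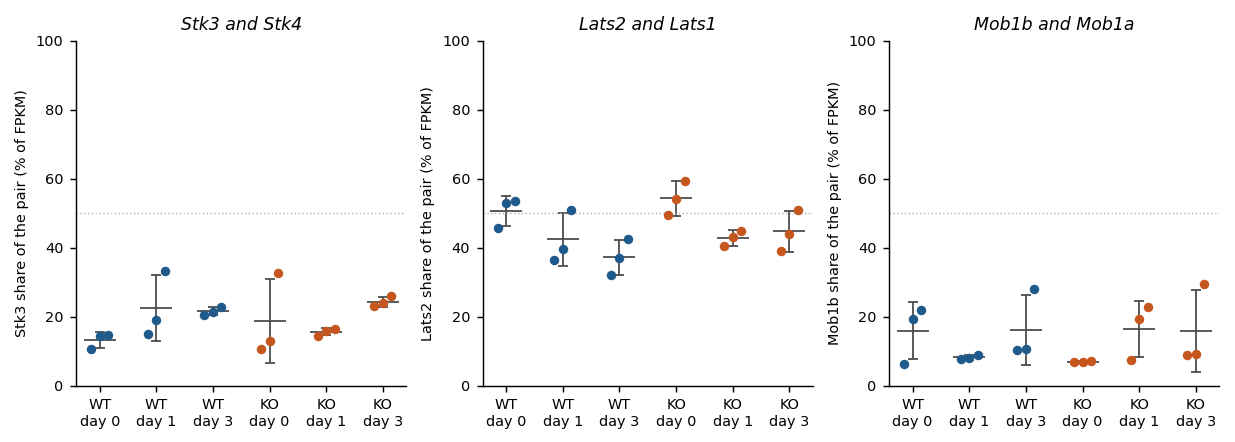
Share of the first gene in the summed FPKM of each paralog pair (vertical axis, percent) by label and day (horizontal axis). Points are libraries, bars the mean and SD of 3, and the dotted line marks 50%. Stk3 and Mob1b stay below 34% in every library, and Lats2 crosses 50%.

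Nf2 (ENSMUSG00000009073, chromosome 11, 4765845 to 4849536, minus strand), the membrane-linked activator, rose with RANKL in the libraries labelled WT. It was at 89.2, 95.2 and 79.7 CPM in WT day 0, at 98, 113 and 95.7 CPM in WT day 1 and at 108 to 131 CPM in WT day 3, and the 3 day 3 libraries lay above all of day 0. This was a rise of 0.45 on the log2 scale (SE 0.113, adjusted p = 0.0045 with edgeR), and it passed in 18 of 18 alternatives. On day 1 it was 0.22 (SE 0.113, adjusted p = 0.297). In the libraries labelled KO, Nf2 was at 73 to 85.6 CPM on day 0, 77.7 to 87 CPM on day 1 and 86.8 to 106 CPM on day 3. The day 3 libraries again lay above day 0, with a log2 fold change of 0.28 (SE 0.113, adjusted p = 0.0606). It passed in 8 of 18 alternatives, including a replicate block (0.28, adjusted p = 0.0475) but not the block nested in the label (0.28, adjusted p = 0.0552), and the fit without KO day 3 replicate 3 (0.36, adjusted p = 0.0333). The responses of the labels differed by -0.18 (SE 0.160, adjusted p = 0.927).

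**Figure D4:**
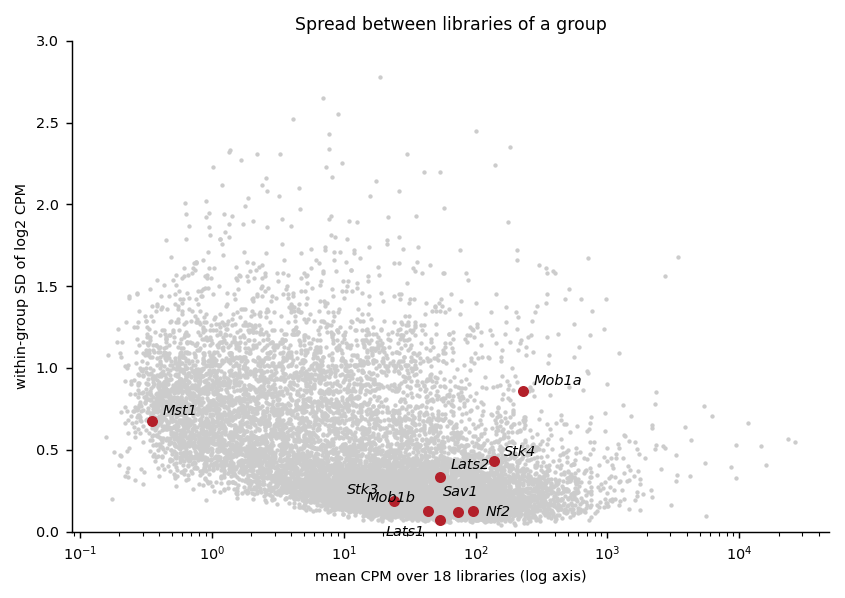
Within-group SD of log2 CPM (vertical axis, 6 groups of 3 libraries) against mean CPM over 18 libraries (horizontal log axis) for the 14241 genes tested (grey) and the 9 genes (red). Mob1a, at an SD of 0.861, lies above most genes of its level, and Lats1, at 0.0704, near the lower edge.

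After 1 day of RANKL 0 of 9 genes passed in either label (edgeR), against 2.35% of all genes in the libraries labelled WT and 0.0211% in those labelled KO. At an unadjusted p under 0.05 there were 1 and 2 of 9, against 20.5% and 10.2% of all genes. DESeq2 called 0 and 1 of 9, against 9.13% and 1.2% of all genes, and limma on FPKM called 0 and 0.

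The libraries labelled KO were compared with those labelled WT on each day. None of the 9 passed on day 0, day 1 or day 3 (edgeR), against 0.119%, 0.112% and 0.14% of all genes. At an unadjusted p under 0.05 there was 1 of 9 on each day, near the 7.59%, 7.9% and 10.7% of all genes. DESeq2 called 1, 0 and 0 of 9, against 0.451%, 0.535% and 1.66% of all genes, and limma on FPKM called 0 each time. The methods of the study used a raw p below 0.05 together with a fold past 1.5 upward or 0.66 downward, and by that rule 0 of 9 passed on each day against 3.95%, 4.7% and 5.69% of all genes. The difference with the smallest unadjusted p on day 0 was that of Lats1, at 43.8 ± 1.79 CPM in KO day 0 against 54.4 ± 3.04 CPM in WT day 0 (log2 fold change -0.31, adjusted p = 0.382), and DESeq2 called it (-0.32, adjusted p = 0.0292). Nf2 had lower means under the KO label on day 1 (82.5 ± 4.66 against 102 ± 9.35 CPM, log2 fold change -0.31, adjusted p = 0.563) and day 3 (97.9 ± 9.92 against 121 ± 11.7 CPM, -0.30, adjusted p = 0.373), without overlap on either day, and neither passed.

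Averaged over the 3 days 0 of 9 passed (edgeR), against 1.59% of all genes, with 3 at an unadjusted p under 0.05 (18.4% of all genes), 1 called by DESeq2 (6.91% of all genes) and 0 by limma on FPKM. These 3 were Nf2 (log2 fold change -0.24, SE 0.0654, adjusted p = 0.0676), Mob1b (-0.20, SE 0.0667, adjusted p = 0.121) and Lats1 (-0.12, SE 0.0481, adjusted p = 0.191), each lower in the libraries labelled KO. Nf2 passed in 4 of 28 alternatives, DESeq2 (adjusted p = 0.0123), the title style as a covariate (0.0338), and the fits without WT day 0 replicate 3 (0.0224) or the double-hyphen WT day 1 library (0.0473). Mob1b passed without WT day 0 replicate 3 (adjusted p = 0.0411). These fits also called more of all genes than the main fit. The shares were 9.68% with the title style, 10.5% without WT day 0 replicate 3 and 4.82% without the double-hyphen WT day 1 library. For the difference between the labels in the day 3 response, 0 of 9 passed with edgeR, DESeq2 or limma, 0 reached an unadjusted p under 0.05, and 0% of all genes were called. The difference was 0.30 for Stk4 (SE 0.436, adjusted p = 0.971), and it turned to -0.04 without KO day 0 replicate 2.

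**Figure D5:**
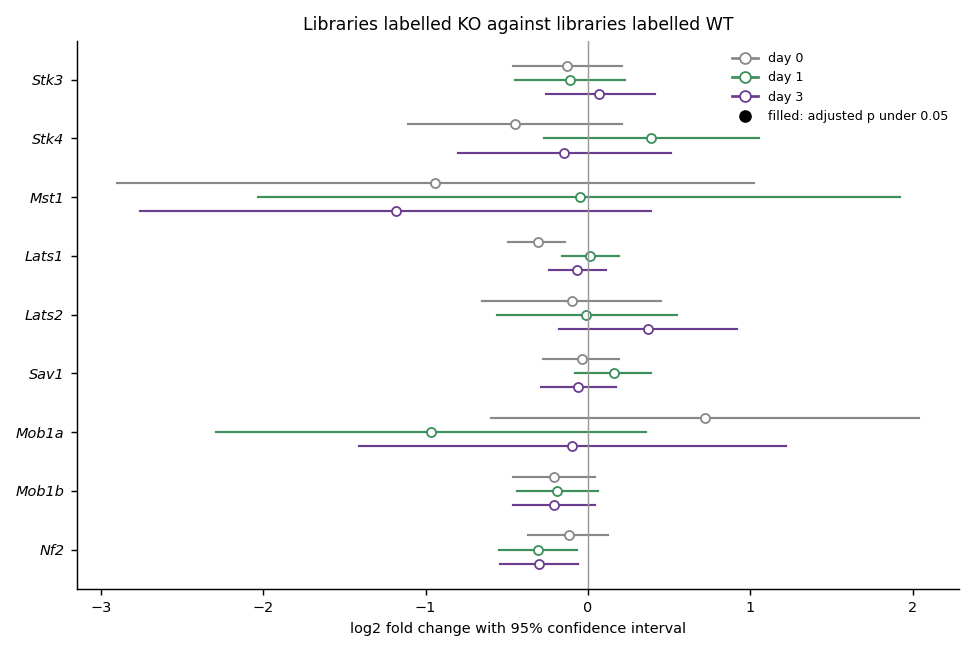
Log2 fold change of libraries labelled KO against WT (horizontal axis) for the 9 genes on day 0 (grey), day 1 (green) and day 3 (purple). Circles are edgeR estimates with 95% confidence intervals, none of them filled, since no adjusted p was under 0.05.

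The rest of the pathway gives the setting. Among 60 other genes listed by role, 59 were tested. These are Hippo genes except for Mst1r, the receptor gene described above, which is counted among the rises in both labels. From day 0 to day 3, 14 rose and 15 fell in the libraries labelled WT (49.2% called, against 50.2% of all genes), and 19 rose and 14 fell in those labelled KO (55.9% called, against 42.5%). The counts by role that follow describe these genes and were not compared with other genes. On day 1 of RANKL 0 of 59 passed in either label, against 2.35% of all genes under the WT label and 0.0211% under the KO label. At an unadjusted p under 0.05 there were 13 and 5 of 59, against 20.5% and 10.2% of all genes. DESeq2 called 2 and 0 (9.13% and 1.2% of all genes), and limma 0 and 0 (1.38% and 0.0843%). Averaged over the days 1 of 59 passed between the labels (1.69%, near the 1.59% of all genes). It was Tnik, at 0.542 to 9.69 CPM over the libraries, which was higher in those labelled KO (log2 fold change 1.29, adjusted p = 0.0149, edgeR).

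Of 5 related MST and NDR kinases, 1 rose and 2 fell in both labels. Stk38l (NDR2), which phosphorylates YAP as LATS does, rose from 4.81 to 16.5 CPM in the libraries labelled WT and from 5.78 to 16.6 CPM in those labelled KO (log2 fold changes 1.77 and 1.52, adjusted p = 0.000284 and 0.00118). Stk26 (MST4) fell by 2.27 and by 2.73 on the log2 scale (adjusted p = 0.0259 and 0.0104). Of 5 other MOB genes, 0 rose and 3 fell in each label, with Mob3c (log2 fold changes -1.65 and -1.22) and Mob3b (-1.29 and -1.38) among them.

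Of 10 MAP4K and TAO kinases, which can phosphorylate LATS in place of MST, 3 rose and 4 fell in each label. Map4k1 fell by 2.27 and by 1.45 on the log2 scale (adjusted p = 0.00103 and 0.0159), and Tnik rose by 1.72 and 1.44 (adjusted p = 0.00332 and 0.00878). Of 6 RASSF genes, whose proteins bind the MST kinases, 4 fell in both labels, and 0 rose in the libraries labelled WT and 1 in those labelled KO. The largest falls were in Rassf4, from 828 to 92 CPM and from 616 to 113 CPM (log2 fold changes -3.17 and -2.45), and Rassf2, from 334 to 77.3 CPM and from 243 to 87.2 CPM (-2.11 and -1.48).

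Of 11 tested upstream membrane and junction genes, 4 rose in the libraries labelled WT and 5 in those labelled KO, and 0 fell. The atypical cadherin Fat4 (log2 fold changes 2.45 and 2.69) and the phosphatase Ptpn14 (2.31 and 2.46) had the largest. The stromal sums given above rose over the same days and within WT day 0, where Fat4 was at 0.165, 2.55 and 6.29 CPM in replicates 1, 2 and 3, and their part in these genes was not tested. Of 11 genes of STRIPAK, the phosphatase complex that acts on the MST kinases, 4 rose and 1 fell in each label. Strip2 went from 0.174 to 5.84 CPM and from 0.169 to 3.33 CPM (adjusted p = 0.00237 and 0.00798), and Ppp2ca, a catalytic subunit of PP2A, from 205 to 334 CPM and from 218 to 289 CPM (log2 fold changes 0.70 and 0.41). Of 3 LIM-domain inhibitors of LATS, 0 passed in the libraries labelled WT and 2 rose in those labelled KO, Ajuba (log2 fold change 1.81, adjusted p = 0.03) and Wtip (1.02, adjusted p = 0.0111), both named after their values were seen. Of 7 YAP, TAZ and TEAD genes and their cofactor, 1 rose and 1 fell in the libraries labelled WT, 2 rose and 0 fell in those labelled KO, and 0 passed in both with the same sign. They were Yap1 (log2 fold change 2.06, adjusted p = 0.0484) and Vgll4 (-1.06, adjusted p = 0.00116) under the WT label and Wwtr1, which encodes TAZ (2.10, adjusted p = 0.0375), and Tead3 (1.93, adjusted p = 0.0498) under the KO label, also named after their values were seen. The stromal sums moved with these genes too. In WT day 0 replicates 1, 2 and 3, where the sums were 89.4, 536 and 4550 CPM, Wwtr1 was at 0.33, 2.40 and 13.0 CPM, Tead3 at 0.742, 1.70 and 9.22 CPM and Ajuba at 2.47, 5.18 and 15.7 CPM, each rising with the sum, whereas Vgll4 ran from 37.7 to 65.6 CPM and was highest in replicate 2. Their part in the day 3 changes was not tested.

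The genes whose log2 CPM followed a member most closely over the 18 libraries were, for Nf2, Mrpl36 (Pearson r 0.93) and Fam210a (0.912), for Stk4, Nono (0.858) and Gm10552 (0.83), and for Lats1, Ap3m1-ps (0.849) and Pbrm1 (0.84). For Lats2 they were Dcaf6 (0.845) and Tnfrsf17 (0.808), for Mob1b Nup214 (0.842) and Cstf1 (0.836), and for Mst1 Qdpr (0.84) and Slc9b1 (0.829). For Sav1 they were Rasl11a (0.767) and Cdsn (0.759), for Stk3 Habp4 (0.759) and Zcrb1 (0.755), and for Mob1a Med6 (0.734) and Tmbim4 (0.725). These describe libraries that share the course of RANKL and carry no test. For comparison, the gene ranked 100th had r of 0.828 for Nf2 and 0.489 for Mob1a. Among the 9 genes the highest r was 0.59, for Lats1 with Nf2 and for Mst1 with Nf2.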

How the data were processed

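BMDM RNA was sequenced in 18 libraries. The authors deposited 1 table of whole-number read counts and FPKM per gene, for which StringTie is named (builds GRCm38.p4 and mm10); the aligner, counting program and use of strand are not given in the sources used here. In genes with at least 20 counts in every library (10427), deposited FPKM equalled counts per total and 1 fixed length to within 0.1%, so it carried no independent information. Totals were 13789775 to 17559958 counts, and intervals cover the spread between libraries only.

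Counts were fitted with edgeR 4.0.16 in R 4.3.3 (filterByExpr, TMM, glmQLFit, glmQLFTest) over 6 groups. P-values are 2-sided, adjusted by Benjamini-Hochberg over 14241 genes, and called under 0.05. CPM use TMM-adjusted library sizes. DESeq2 1.42.0 and limma 3.58.1 (log2(FPKM + 0.1)) were alternatives, and the code was tested on simulated data. No columns were without a sample. The 9 genes and all lists were chosen with earlier results of these data known. Genes named were the 9, Zmat1, up to 2 per list called with the same sign in both labels on day 3 with the largest mean change, and the 2 most correlated with each of the 9. Other genes named (Tomm34, Rnf123, Atl1, Xpo4, Gm49361) overlap one of the 9, and Tnik was also named as the only call between labels. Outside this rule, Yap1, Vgll4, Wwtr1, Tead3, Ajuba and Wtip were named after their values were seen, as calls in 1 label. Hbb-bs was likewise named after its values were seen, to describe the title style. Genes were placed with GENCODE M21 (GRCm38), where 6 of the 9 had identical positions.

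Replicate numbers were checked by correlating deviations from group means. In the libraries labelled KO, same-numbered libraries of days 0 and 3 correlated by 0.13 to 0.40 (3 of 3 pairs over 0.1), so blocked values are given there, and in those labelled WT by -0.02 to 0.11. For days 0 and 1 the range was 0.05 to 0.60 under the KO label and -0.46 to 0.60 under the WT label (2 of 3 pairs over 0.1 in each). WT day 0 replicate 1 correlated by 0.60 with the double-hyphen WT day 1 library numbered 1 and by -0.46 with the single-hyphen one. The labels do not say what a number shares or whether libraries came from separate animals, so p-values measure the spread between these libraries, which may be technical. WT day 1 has 2 libraries numbered 1, and 0 of 153 pairs of libraries were identical.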

Additional observations from a re-analysis of the deposited data

How the results depend on the processing

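Nf2 in the libraries labelled WT and Lats1 in those labelled KO (day 3 against day 0) passed in all 18 alternatives run for each. Members called on day 3 in the libraries labelled WT numbered 3, and 5 with total counts or limma on FPKM, which called 51.8% and 54.8% of all genes (leaving out 1 library, 1 to 4; it was 1 without WT day 0 replicate 2 or WT day 3 replicate 2 or 3). In those labelled KO the count was 1, and 4 with total counts or limma on FPKM (43.8% and 46.6% of all genes), and 2 with the stricter filter, DESeq2 size factors, the DESeq2 test, the title style, both WT day 1 libraries numbered 1 summed, or without the 5 double-hyphen titles, an alternative chosen after seeing the data (leaving out 1 library, 1 to 2, and 2 without KO day 0 replicate 2 or KO day 3 replicate 3). Of all genes, the day 3 fits leaving out 1 library called 39.4% to 52.6% under the WT label and 30.6% to 36% under the KO label. The other alternatives that gave 2 under the KO label called 39.8% to 47.6%. For day 1 against day 0, leaving out 1 library gave 0 to 1 in the libraries labelled WT (up to 12.4% of all genes). DESeq2 gave 1 in those labelled KO (1.2% of all genes). Between the labels DESeq2 gave 1 on day 0. Averaged over the days DESeq2 and the title style gave 1 each (6.91% and 9.68% of all genes). Leaving out 1 library gave 0 to 2 (0.454% to 10.5% of all genes). At the threshold in the methods of the study the title style, limma on FPKM and a fit on only the groups compared gave 1 each, and leaving out 1 library 0 to 1.

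With a replicate block the count was 2 in the libraries labelled KO on day 3 and 3 in those labelled WT. The block nested in the label gave 1 and 3. The block changed no other call. The numbers do not pair the libraries labelled WT.

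Day 3 signs turned for Stk3 in the libraries labelled WT (0.27 with total counts and with limma on FPKM, 0.00 with the title style, 0.07 without the double-hyphen titles, and -0.18 to 0.03 leaving out 1 library) and in those labelled KO (-0.01 to 0.30 leaving out 1 library). They turned for Mob1a in the libraries labelled WT (-0.11 without the double-hyphen titles, -0.28 to 0.84 leaving out 1 library) and for Lats2 in those labelled KO (0.09 with total counts and with limma on FPKM, -0.36 to 0.02 leaving out 1 library). For Stk4 the difference in response between labels was -0.05 without the double-hyphen titles and -0.04 to 0.52 leaving out 1 library. All of these missed the threshold under the main fit, and all but Stk3 in the libraries labelled KO missed it in every alternative. Stk3 in the libraries labelled KO passed in 2 of 18 alternatives, total counts among them.

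Depth limits Mst1, at 24 counts or fewer per library, and groups of 3 limit Mob1a and Stk4, in which 1 library moves a mean.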
